A study of Mus musculus with 31 samples.

Results

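The cytosolic ribosomal protein genes were taken as all genes whose symbol begins with Rpl, Rps or Rplp followed by a number, without the S6 kinase genes (Rps6k) and Rps19bp1. The rule found 89 of the 21154 gene symbols on the array. They carried 175 of 55681 probes. By symbol, 52 of the 89 members are named for the large subunit, 34 for the small subunit and 3 for the stalk (Rplp0, Rplp1, Rplp2). These counts include paralogs, retrocopies and pseudogenes, which need not encode a part of the ribosome. RefSeq annotates 87 as protein coding and 2, Rps4l and Rps15a-ps6, as transcribed pseudogenes. Each gene was read from its brightest probe, 36 members having only 1 probe, and all 89 entered the tests.

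RNA came from the nucleus accumbens (NAc) and the medial prefrontal cortex (mPFC) of adult female DBA2/J (DBA) and C57BL/6J (C57) mice (12 weeks old in the sample labels, 9 to 12 weeks in the growth protocol), and was hybridised to 31 one-colour Agilent arrays. In repeated cross-fostering (RCF), whole litters were passed to a new foster dam each day from postnatal day 1 to day 4. Control litters were lifted out daily and put back with their own dam. With near-identical arrays averaged, the groups were DBA NAc RCF (n = 4) and control (n = 4), C57 NAc RCF (n = 4) and control (n = 2), DBA mPFC RCF (n = 3) and control (n = 3), and C57 mPFC RCF (n = 4) and control (n = 3). No mouse carried a transgene or drug treatment, all were weaned on day 28, and the labels do not say whether the 2 regions came from the same animals. Tissue was bulk, so fewer cells of a type and less RNA per cell cannot be told apart, and p-values measure only the spread between these samples.

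Ribosomal proteins are the protein part of the cytosolic ribosome. The small subunit decodes the mRNA, the large subunit forms the peptide bond, and the stalk recruits the elongation factors. Their mRNAs are abundant in nearly all cells. Many begin with a 5′ terminal oligopyrimidine tract (TOP), a cytosine followed by a run of pyrimidines at the cap, through which mTORC1 signalling controls their translation. In neurons, ribosomal protein mRNAs are also found in dendrites and axons.

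The start sites of a few members are shown because this tract is a feature the selection by name did not use. RefSeq (GRCm38.p6) had 78 start sites for 66 of the 89 members. The letter pattern searched was C followed by at least 4 bases that are each C or T, on the gene's own strand, beginning within 10 bases of the annotated start. It was found at 55.1% of the members' start sites and at 30.7% of all 32851 start sites in the table. Exactly at the annotated start base the shares were 17.9% and 2.5%. The windows run from 20 bases before the start to 20 after it. Capitals mark the first tract that begins within 10 bases of the start, and in Rpl4 and Rps3 none begins there. In Rpl4 and Rpl28 such a tract also begins farther upstream, outside that reach, and is left in lower case.
Rps9, chr7:3704021-3704060, plus strand: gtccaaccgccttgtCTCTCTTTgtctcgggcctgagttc
Rpl28, chr7:4792945-4792984, plus strand: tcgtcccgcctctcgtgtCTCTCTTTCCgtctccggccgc
Rpl15, chr14:18270967-18271006, minus strand: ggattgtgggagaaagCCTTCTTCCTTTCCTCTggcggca
Rps6, chr4:86857348-86857387, minus strand: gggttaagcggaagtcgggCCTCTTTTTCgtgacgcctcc
Rpl4, chr9:64173367-64173406, plus strand: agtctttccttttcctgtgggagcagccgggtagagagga
Rps3, chr7:99483690-99483729, minus strand: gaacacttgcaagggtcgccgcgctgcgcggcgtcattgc

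Several facts about the samples bear on every result. Each array was given the sample whose column in the authors' value table it matched (correlation of at least 0.999994, against at most 0.998028 with any other column), and for 29 of 31 samples this was the scanner file listed under another sample. Each of the 4 slides then held 1 strain and 1 tissue with both treatments, so slide and strain or tissue cannot be told apart. Pairs of arrays that differed by little more than their repeated spots were counted as 1 sample, namely replicates 1 with 3 and 2 with 4 of the C57 NAc controls, replicates 2 with 4 of the DBA mPFC controls, and replicates 1 with 3 of DBA mPFC RCF. In 6 of the 27 samples, marker genes of strain, tissue or sex lay on the wrong side of the midpoint for their label. DBA NAc control 4 and DBA mPFC control 1 had C57-like strain markers. In DBA mPFC control 1, Xist read -5.87, against 0.21 and 0.53 in the other DBA mPFC controls. C57 mPFC control 3 and C57 mPFC RCF 1 had NAc-like neuronal markers, and C57 NAc RCF 1 and C57 NAc control 1 and 3 had mPFC-like ones. These libraries stayed in, are called samples in doubt, and results are also given without them. Each array had 58.6% to 81.9% of its probes well above background.

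All levels are log2 signals relative to the 75th percentile of the array's probes, so 0 is that percentile and 1 unit is a doubling. Of the 89 members, 86 were well above background on all arrays, and no probe of a member was saturated. The median member level of a sample lay between 5.729 (DBA mPFC control 1) and 6.639 (DBA NAc RCF 1), far up the range of each array. The exceptions were the paralogs Rpl10l, Rpl3l and Rpl39l, known for expression in germ cells (Rpl10l and Rpl39l) and striated muscle (Rpl3l). Rpl10l was not well above background on any of the 4 arrays of C57 NAc RCF, C57 NAc control or DBA NAc RCF, so no fold is given for it. Rpl39l was not well above background in C57 NAc control or DBA mPFC RCF, and Rpl3l was well above it on 3 of 4 arrays in C57 NAc RCF, 1 of 4 in C57 NAc control, 3 of 4 in C57 mPFC RCF and all arrays of the other groups. Over the 27 samples, 85 of 89 members had an SD under 0.5, with a median of 0.271, and the widest were Rpl39l (1.233), Rps4l (0.951), Rpl10l (0.787) and Rps15a-ps6 (0.51).

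Under percentile scaling, the members moved up and down together from sample to sample. Within groups, the number of members above their own group mean ran from 1 of 89 in C57 NAc RCF 1 to 86 of 89 in C57 NAc RCF 3 and in C57 mPFC control 3. Over all features, the share above the group mean stayed between 40.5% and 58.2% per sample. The samples with the lowest member medians included the 2 with the most probes above background, DBA mPFC control 1 (81.9%) and C57 mPFC RCF 4 (median 5.753, 80.2%); the part of array brightness in this was not tested. Quantile normalization, which gives all arrays the same distribution, narrowed the range of sample medians to 5.805 to 6.407. It also moved 7 of the 27 samples to the other side of 50% of members above their group mean. In C57 mPFC RCF 2, 3 and 4 the members above numbered 13, 23 and 64 after quantile normalization, against 66, 77 and 8 under percentile scaling. In DBA mPFC RCF 1 and 3 they numbered 30, against 69, and in DBA mPFC control 2 and 4 they numbered 36, against 77. The other 2, C57 NAc RCF 2 and 4, had 47 and 46, against 18 in each. In C57 NAc RCF 3 the count was 83 after quantile normalization. Which samples read high or low thus depended in part on the scaling.

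**Figure D1:**
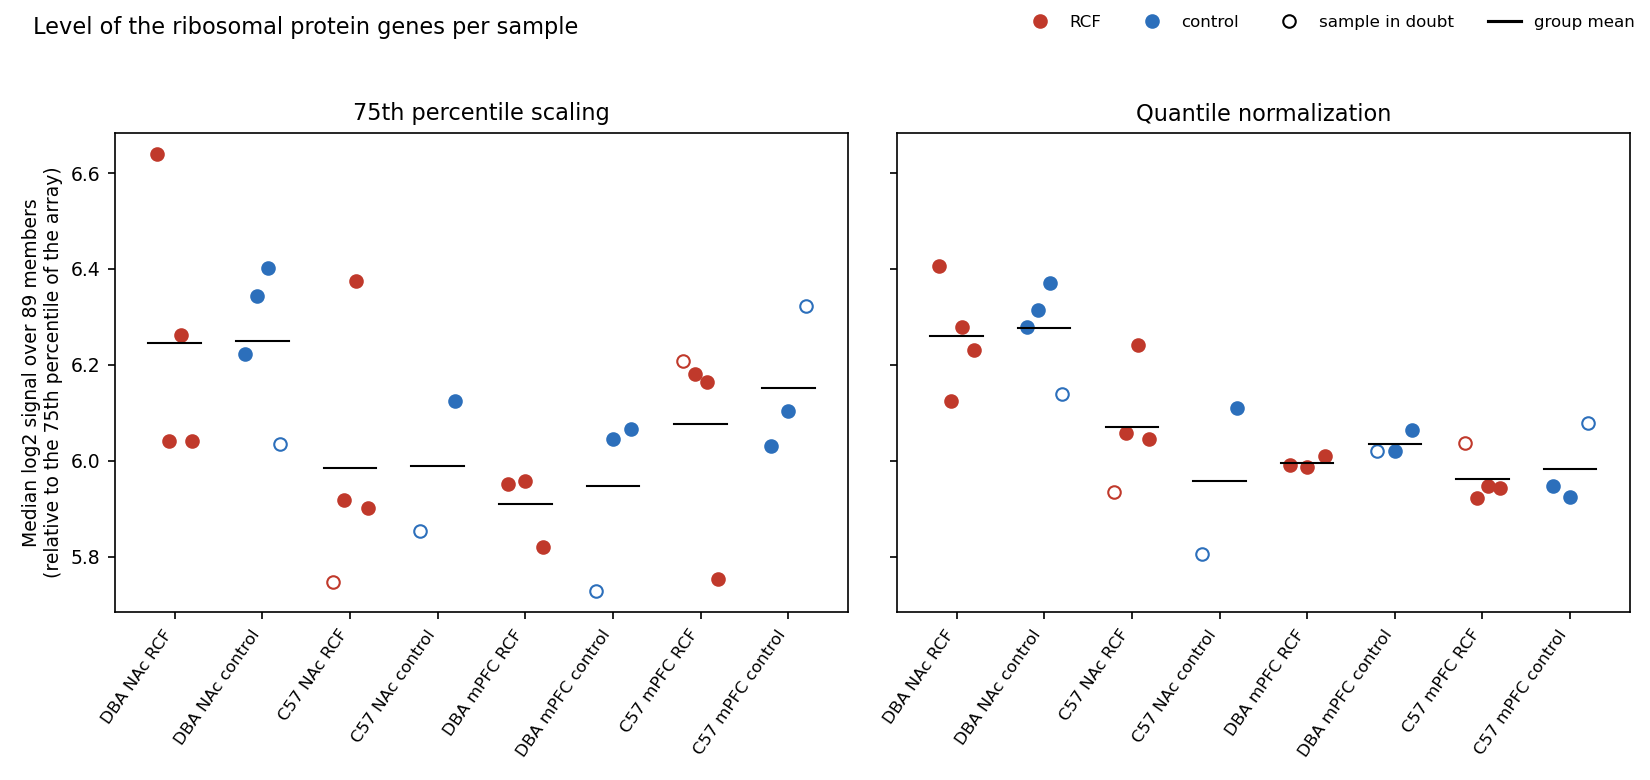
Median log2 signal over the 89 members in each of 27 samples, by group, under 75th percentile scaling (left) and quantile normalization (right); open circles are samples in doubt and bars are group means. DBA NAc samples have the highest group means under both scalings, and RCF and control samples of the same strain and tissue overlap except in the DBA mPFC after quantile normalization, where the RCF samples lie below the controls.

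**Figure D2:**
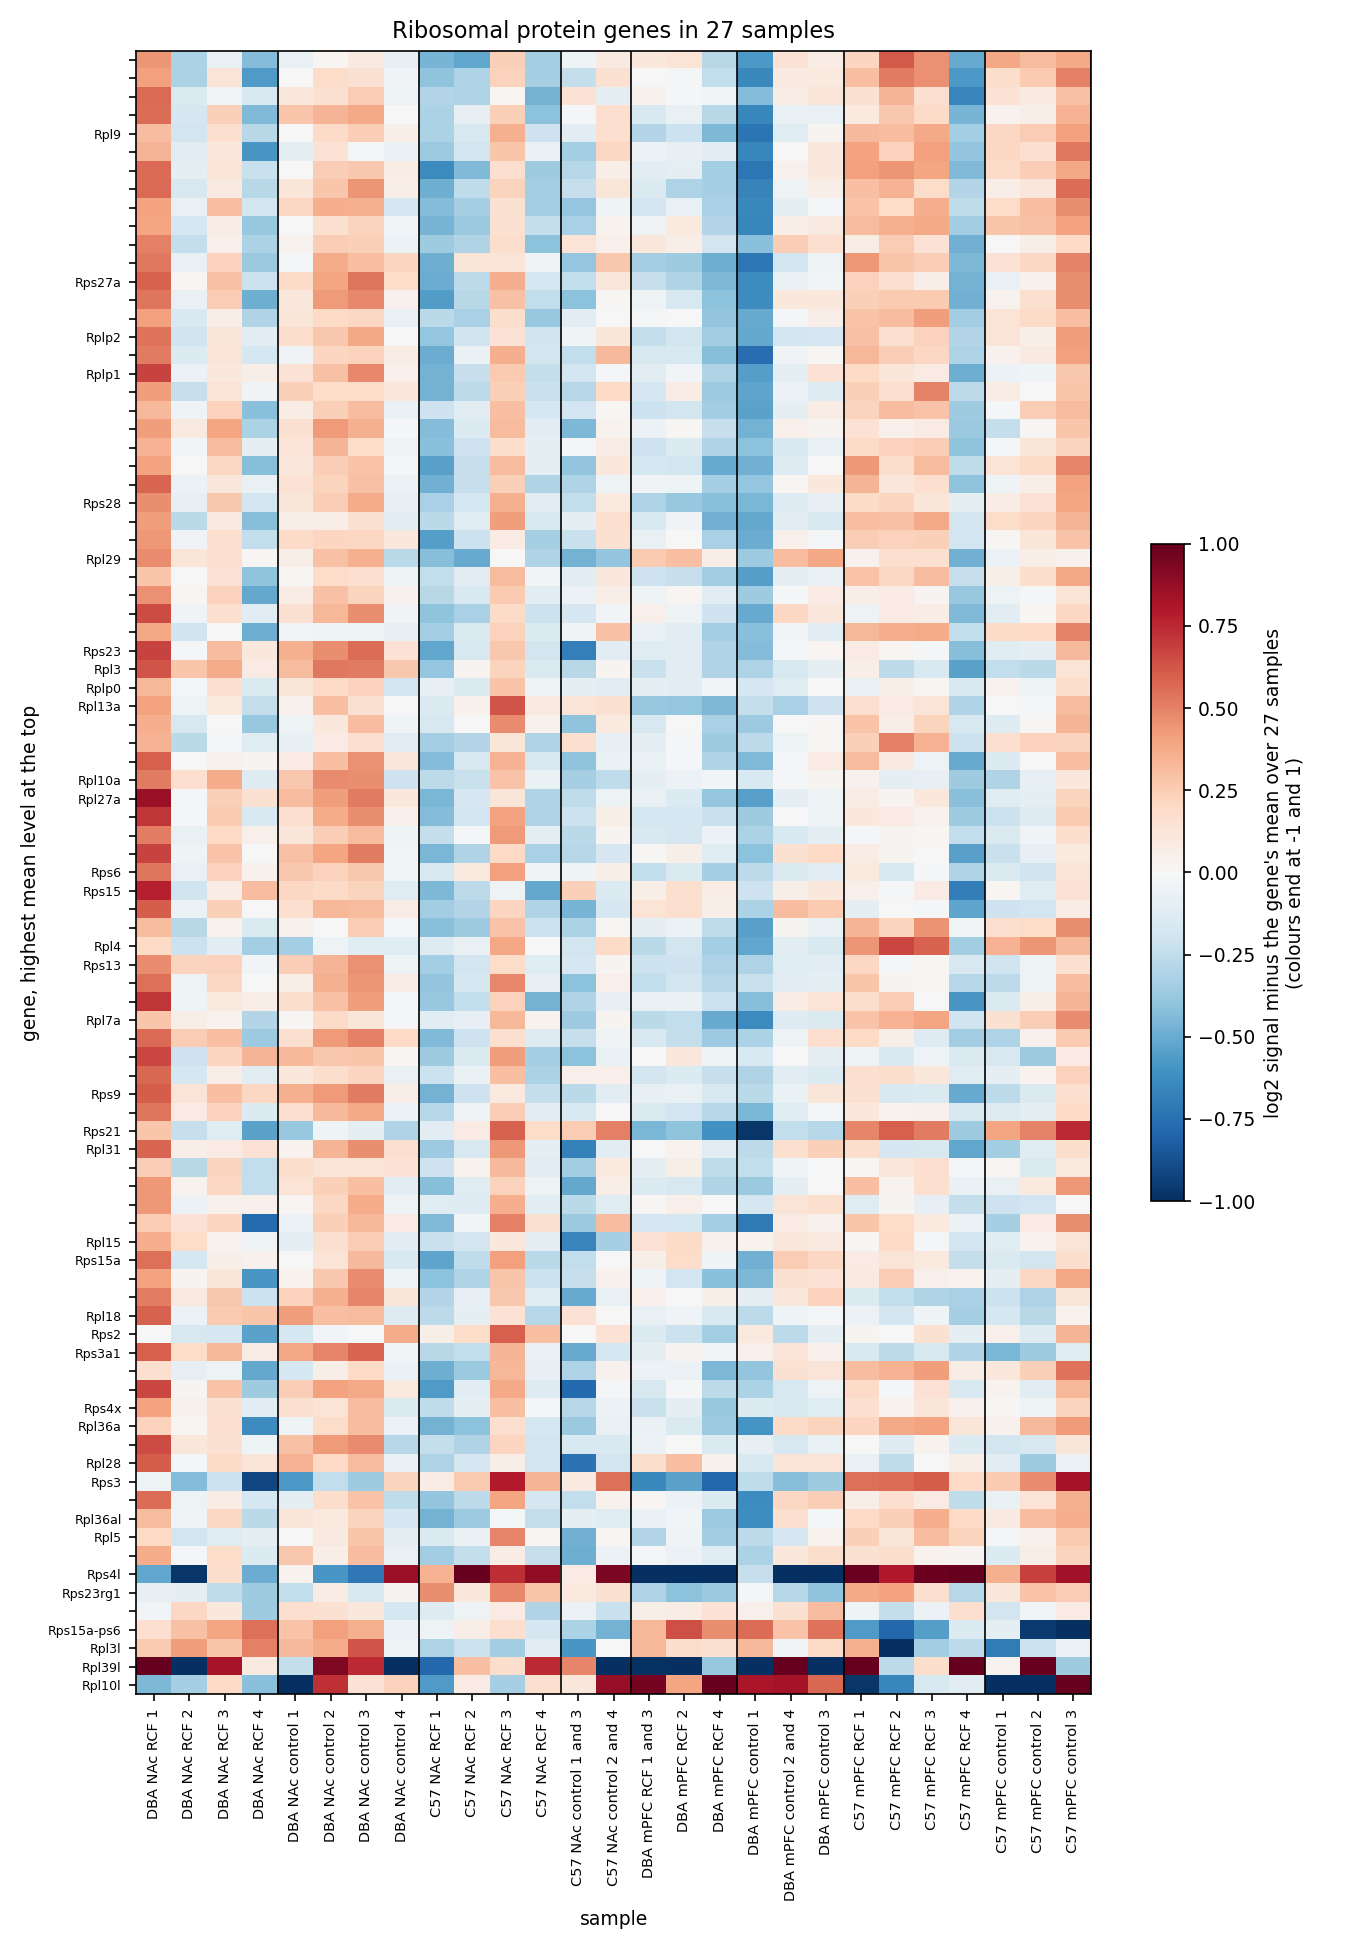
Log2 signal of each member (rows) minus its mean over 27 samples (columns, ordered by group), with rows ordered by mean level and the members named in the text labelled. Under this percentile scaling most rows change colour together between samples, whereas Rps4l, Rps3, Rps21 and Rps15a-ps6 differ between strains, and Rpl10l and Rpl39l, near background, vary widely.

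The first comparison asked whether repeated cross-fostering altered ribosomal protein mRNA in the adult brain. No member passed the test (limma, Benjamini-Hochberg adjusted p under 0.05) in any of the 4 comparisons of RCF with control. Over all 30165 features, the share called was 0.593% in the C57 NAc (0.0729% higher, 0.520% lower), and 0% in the C57 mPFC, the DBA mPFC and the DBA NAc. At an unadjusted p under 0.05 the members numbered 1 in the C57 NAc, 1 in the DBA mPFC, 0 in the C57 mPFC and 0 in the DBA NAc. Shares of all features at an unadjusted p are not given here or below, so such counts do not compare the members with other genes. The median member difference, RCF minus control on the log2 scale, was -0.06 in the DBA NAc (74 of 89 below 0; all features 0.01), -0.00006 in the C57 NAc (45 below 0; 0.005), -0.008 in the DBA mPFC (49 below 0; -0.009) and -0.05 in the C57 mPFC (67 below 0; -0.009). After quantile normalization the median was -0.06 in the DBA NAc, 0.14 in the C57 NAc, -0.03 in the DBA mPFC and 0.03 in the C57 mPFC. Without the samples in doubt it was -0.12 in the DBA NAc, -0.06 in the C57 NAc, -0.14 in the DBA mPFC and -0.02 in the C57 mPFC, and no member was called. In the DBA NAc, the DBA mPFC and the C57 mPFC, 86 of 89 members differed by less than 0.25, and in the C57 NAc 75 did. The median standard error of a member's difference was 0.173 in the DBA NAc, 0.212 in the C57 NAc, 0.199 in the DBA mPFC and 0.186 in the C57 mPFC, so differences of that size were not detectable.

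Sample values of Rplp0 and Rps6 are given as examples. Rplp0, the stalk's base protein, had the smallest SD over samples of all members (0.148, median of members 0.271), so it does not stand for the family. It read 6.645, 6.298, 6.468 and 6.167 in DBA NAc RCF, against 6.433, 6.511, 6.537 and 6.127 in DBA NAc control. In the C57 mPFC it read 6.238, 6.372, 6.329 and 6.159 after RCF, against 6.341, 6.267 and 6.488 in controls. In both of these comparisons the RCF and control values overlap. Rps6, the small subunit protein that the S6 kinases phosphorylate, read 5.815, 5.92 and 5.735 in DBA mPFC RCF, against 5.805, 5.923 and 5.958 in DBA mPFC control, again overlapping.

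The smallest p for a member was that of Rpl15, a large subunit protein, in the C57 NAc. It read 5.201, 5.239, 5.526 and 5.334 after RCF, against 4.764 and 5.094 in controls. The groups do not overlap, and the lowest value belongs to C57 NAc control 1 and 3, a sample in doubt. The difference was 0.40 ± 0.14 (SE; limma, adjusted p = 0.245). After quantile normalization it was 0.49 (limma, adjusted p = 0.0236), and without the samples in doubt the difference was 0.27 (limma, adjusted p = 1). A second Rpl15 probe gave a difference of 0.17 (limma, adjusted p = 0.804). In the DBA mPFC, Rps4l was -0.72 ± 0.35 in RCF minus control (SE; limma, adjusted p = 1) and -0.37 without DBA mPFC control 1, the sample with C57-like strain markers.

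Nor did the effect of RCF pass a test of difference between strains or tissues for any member: 0 members and 0% of all features were called for strain by treatment in the NAc and in the mPFC, and for tissue by treatment in DBA and in C57. The lowest p-values belonged to Rps2 in the NAc, with a difference between strains of -0.47, and to Rps4l in the mPFC, with -1.07.

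Strain was compared next, at each tissue and treatment. In the mPFC, DBA had lower signal than C57 for most members; in the NAc, DBA had higher signal for most. The 2 regions lie on different slides. In the mPFC, 9 members were called lower and 1 higher in DBA after RCF, and again 9 lower and 1 higher in controls. Over all features, 13.3% were called lower and 21.7% higher after RCF (35.0% in either direction), and 8.43% lower and 16% higher in controls (24.4%). The members' 10 of 89 is therefore a smaller share than that of all features, 11.2% against 35.0% and 24.4%. In the NAc, 5 members were called higher and 4 lower in DBA after RCF, and 9 higher and 0 lower in controls, against 4.99% higher and 10.9% lower (15.8%) of all features after RCF and 6.07% higher and 11.1% lower (17.2%) in controls.

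The direction of the whole family is seen better in its median. DBA minus C57, it was 0.22 in the NAc after RCF (75 of 89 above 0; all features -0.02) and 0.26 in NAc controls (78 of 89; -0.03). In the mPFC it was -0.24 after RCF (66 of 89 below 0; all features 0.08) and -0.22 in controls (71 of 89; 0.08). Members moved together from sample to sample, so these counts over members do not measure the spread between samples. Sample medians of DBA and C57 overlapped in each comparison. In the NAc after RCF they were 6.041 to 6.639 in DBA and 5.748 to 6.374 in C57. NAc controls gave 6.035 to 6.401 and 5.854 to 6.125. In the mPFC they were 5.819 to 5.957 and 5.753 to 6.208 after RCF. The mPFC controls gave 5.729 to 6.066 and 6.03 to 6.323. Genes named for the large and small subunit had like medians. In the NAc after RCF these were 0.21 for large and 0.24 for small, and in the mPFC after RCF -0.25 and -0.23.

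The NAc medians kept their sign under quantile normalization and with any 1 sample or the samples in doubt left out, and the median of mPFC controls did not. After quantile normalization the NAc medians were 0.17 after RCF and 0.35 in controls, and without the samples in doubt they were 0.13 and 0.20. In the mPFC, quantile normalization left -0.05 after RCF and -0.006 in controls, and without the samples in doubt the values were -0.19 and 0.003. Calls in the NAc after quantile normalization numbered 17 higher and 5 lower after RCF, where 6.81% of all features were called higher and 9.08% lower under the same scaling. In NAc controls they numbered 42 higher and 1 lower, against 8.92% higher and 10.1% lower of all features. In the mPFC they were 9 higher and 10 lower after RCF (all features 17.4% and 14.4%), and 8 higher and 6 lower in controls (11% and 9.00%). Without the samples in doubt, NAc control calls were 0 higher and 2 lower, with 1 C57 NAc control sample left (all features 2.50% higher and 5.02% lower), and mPFC control calls were 2 higher and 2 lower (12.0% and 6.98%).

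**Figure D3:**
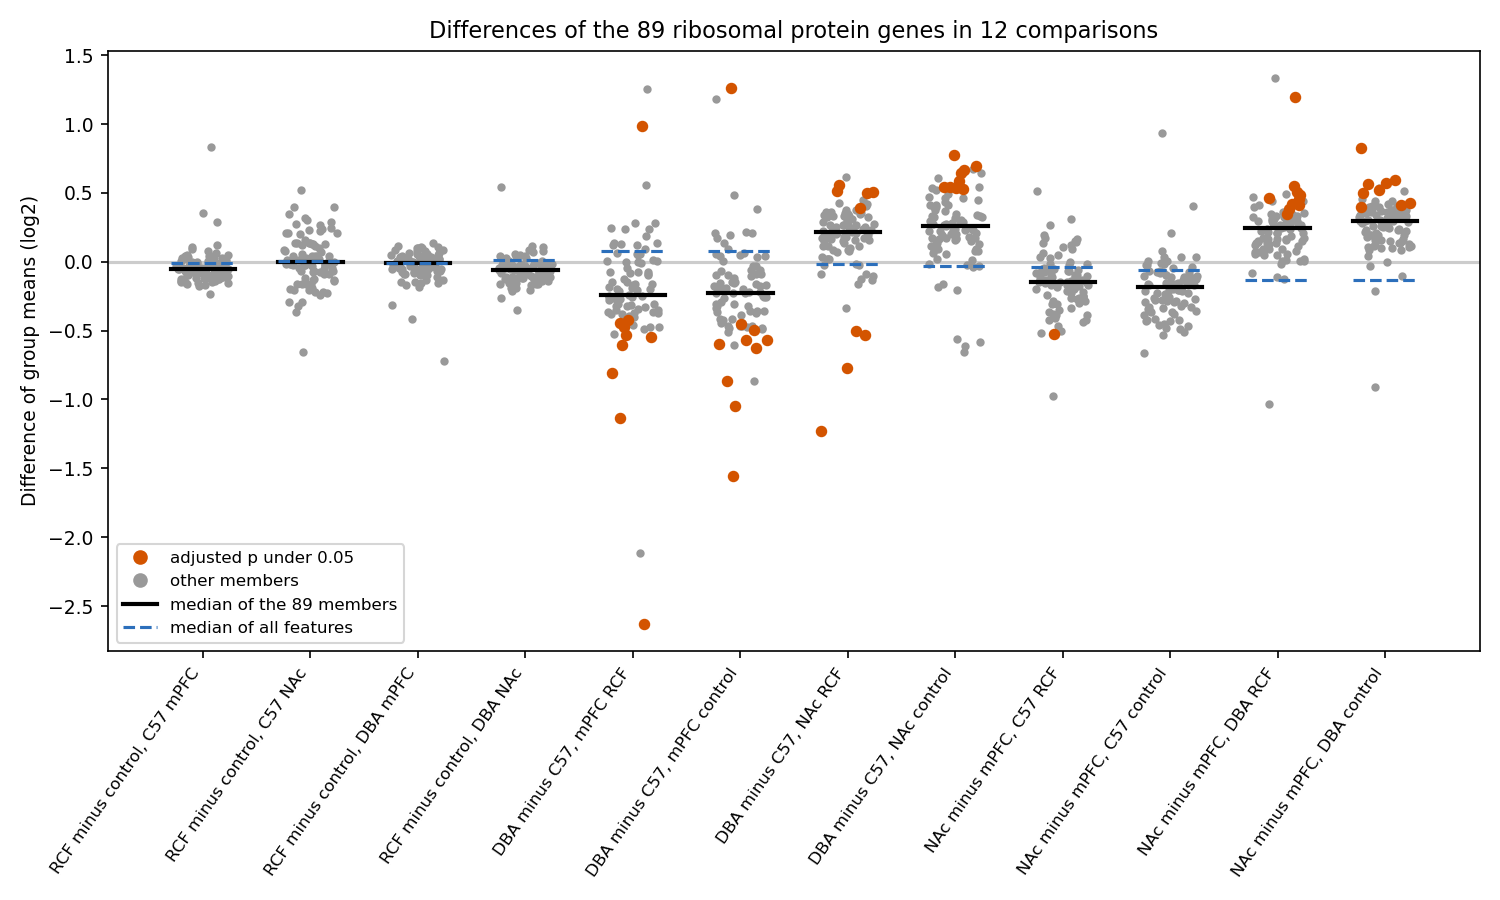
Differences of group means (log2) for the 89 members in 12 comparisons; orange points had an adjusted p under 0.05, black bars are member medians and dashed blue bars the medians of all features. Most RCF minus control points lie close to 0, 87 or 88 of 89 members differing by less than 0.5, and DBA minus C57 medians lie below 0 in the mPFC and above 0 in the NAc.

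A few members had strain differences far larger than the family's. Rps4l, a transcribed pseudogene related to the small subunit gene Rps4x, read -0.243, -0.034 and -0.304 in DBA mPFC RCF, against 2.447, 2.256, 2.437 and 2.598 in C57 mPFC RCF. Its difference was -2.63 ± 0.32 (SE; limma, adjusted p = 7.29e-06), the largest among the 10 members called. In mPFC controls it read 1.227, 0.011 and 0.341 in DBA, against 1.808, 2.14 and 2.295 in C57. Neither pair of groups overlaps. The highest DBA mPFC control value, 1.227, is that of DBA mPFC control 1.

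In the NAc, Rps4l read 0.939, 0.485, 1.631 and 0.959 in DBA RCF, against 1.803, 2.607, 2.19 and 2.339 in C57 RCF, a difference of -1.23 ± 0.30 (SE; limma, adjusted p = 0.00648). In NAc controls it read 1.494, 0.872, 0.741 and 2.31 in DBA, against 1.538 and 2.398 in C57. Here the groups overlap, through DBA NAc control 4, whose strain markers were C57-like, and the difference of -0.61 was not called. Without the samples in doubt, that difference was -1.36 (limma, adjusted p = 0.0169).

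Rps3, a small subunit protein at the mRNA entry channel that also takes part in DNA repair, followed the same order. It read 4.004, 4.117 and 3.867 in DBA mPFC RCF, against 5.201, 5.207, 5.255 and 4.849 in C57 mPFC RCF (difference -1.13 ± 0.20, SE; limma, adjusted p = 0.000269). In NAc controls, DBA NAc control 4 read 4.873, above the 4.074, 4.405 and 4.298 of the other DBA NAc controls and between the 4.745 and 5.201 of C57 NAc controls. Differences called were -0.87 in mPFC controls and -0.77 in the NAc after RCF, and -0.56 in NAc controls was not. The second Rps3 probe gave -0.09 in the mPFC after RCF, -0.41 in mPFC controls, -0.25 in the NAc after RCF and -0.40 in NAc controls, none of them called. The strain difference of Rps3 therefore rests on 1 of its 2 probes.

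Rps21, a small subunit protein, read 5.232, 5.291 and 5.085 in DBA mPFC RCF, against 6.181, 6.293, 6.214 and 5.339 in C57 mPFC RCF. All DBA values lie below all C57 values, the nearest being C57 mPFC RCF 4. The strain difference was -0.80 ± 0.22 after RCF (SE; limma, adjusted p = 0.0073) and -1.04 ± 0.24 in controls (SE; limma, adjusted p = 0.00312). In the NAc, Rps21 was -0.33 after RCF and -0.58 in controls, neither called, and after quantile normalization -0.43 and -0.54, both called (limma, adjusted p = 0.0294 and adjusted p = 0.0256). In DBA NAc control 4 it read 5.389, within the range of the other DBA NAc controls (5.313 to 5.647), unlike Rps4l and Rps3.

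Rps23rg1, a retrocopy of the small subunit gene Rps23, read -0.297, -0.397 and -0.363 in DBA mPFC RCF, against 0.388, 0.415, 0.175 and -0.271 in C57 mPFC RCF. Only C57 mPFC RCF 4 came near the DBA values. The strain difference was called after RCF in the mPFC (-0.53) and the NAc (-0.53) and in mPFC controls (-0.45), and was -0.20, not called, in NAc controls. Rps15a-ps6, a transcribed pseudogene of Rps15a, went the other way in the mPFC: it read -1.733, -1.422 and -1.595 in DBA mPFC RCF, against -2.626, -2.846, -2.616 and -2.203 in C57 mPFC RCF (difference 0.99 ± 0.21, SE; limma, adjusted p = 0.00108). Its difference in mPFC controls was 1.26 ± 0.22 (SE; limma, adjusted p = 0.000502). Pseudogenes and retrocopies resemble their parent genes, so signal from the parent mRNA on these probes cannot be told apart from their own.

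Rpl4 and Rpl7a, large subunit proteins, were lower in DBA in the mPFC, by -0.60 and -0.55 after RCF and by -0.63 and -0.59 in controls. Of the other 3 Rpl7a probes, 2 were also called lower in both mPFC comparisons, and 1 was called higher (0.46 after RCF and 0.43 in controls). Rpl4, Rpl7a, Rps15a-ps6, Rps21, Rps23rg1, Rps3 and Rps4l were the 7 members called in the same direction in both mPFC comparisons, 70.0% of the 10 called in each. Of all features called in the mPFC, those called in the same direction in both comparisons were 59.3% of the RCF calls and 85.2% of the control calls. Rpl5, Rpl13a and Rps28 after RCF and, in controls, Rpl9 and Rplp2 were also lower in DBA. Rpl9 was -0.57 in controls and -0.34, not called, without DBA mPFC control 1. A second Rpl9 probe gave -0.24 in mPFC controls, not called. Probes of Rpl13a disagreed, and after RCF its other probes gave 0.16 and 0.10.

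**Figure D4:**
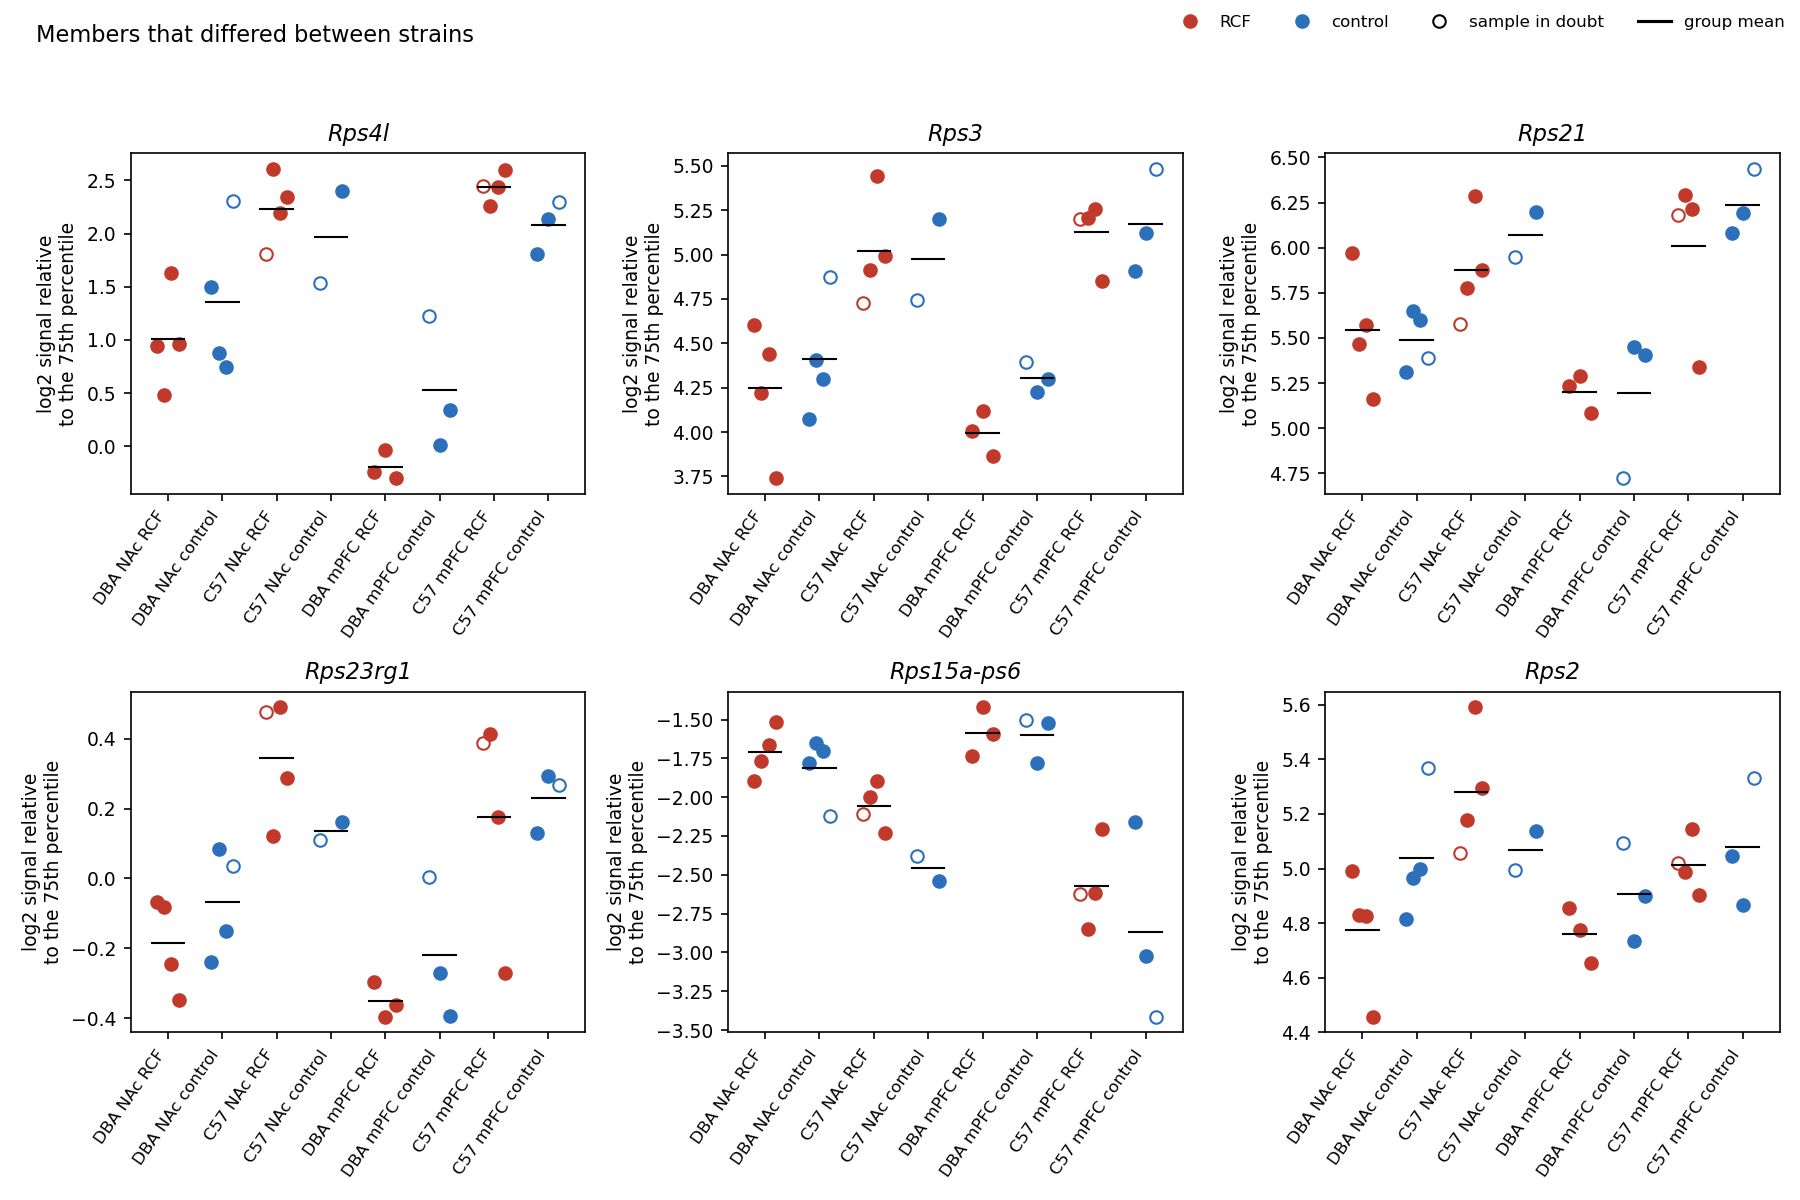
Log2 signal relative to the 75th percentile for 6 members in 27 samples, by group; open circles are samples in doubt and bars are group means. Rps4l, Rps3 and Rps21 are lower and Rps15a-ps6 is higher in DBA than in C57 in the mPFC, and DBA NAc control 4 (open, second group) lies among C57 samples for Rps4l, Rps3 and Rps2.

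In the NAc the members higher in DBA were mostly other genes, at smaller differences. Rps9, a small subunit protein involved in decoding accuracy, was the 1 member called in both NAc comparisons, 11.1% of the 9 called in each, where 52.3% of the RCF calls and 48.2% of the control calls of all features were shared in direction. It read 6.315, 5.834, 6.011 and 5.913 in DBA NAc RCF, against 5.233, 5.5, 5.801 and 5.47 in C57 NAc RCF, with no overlap (difference 0.52 ± 0.15, SE; limma, adjusted p = 0.0169). In controls it read 6.061, 6.136, 6.23 and 5.772 in DBA NAc, against 5.438 and 5.603 in C57 NAc, also without overlap (difference 0.53 ± 0.18, SE; limma, adjusted p = 0.0441). Rpl18, Rpl27a, Rpl29 and Rps15 were the other members higher in DBA after RCF, by 0.39 to 0.56. Among them Rpl27a was 0.51, and 0.32 without DBA NAc RCF 1. The other probes of Rpl27a gave 0.22 and 0.38, neither called. In controls Rps3a1, Rpl10a, Rpl15, Rpl28, Rpl3, Rpl31 and Rps23 were among the members higher in DBA, by 0.54 to 0.78. Rpl28, a large subunit protein, read 5.077, 4.931, 5.046 and 4.663 in DBA NAc control, against 3.989 and 4.535 in C57 NAc control. All 9 control calls were lost without C57 NAc control 1 and 3, which left 0 members called (the other C57 NAc control sample then stands alone and is assumed to vary like the other groups). Without it, Rps9 was 0.45, Rpl10a 0.51 and Rps3a1 0.53, close to their values with it. Rpl28 was 0.39, against 0.67 with it, Rpl31 was 0.36, against 0.64, and Rps23 was 0.49, against 0.78.

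Rps2, a small subunit protein at the mRNA entrance, was lower in DBA NAc RCF (4.99, 4.829, 4.827 and 4.456) than in C57 NAc RCF (5.055, 5.177, 5.59 and 5.296), by -0.50 ± 0.14 (SE; limma, adjusted p = 0.0136). A second Rps2 probe was lower in DBA by -1.40 there and by -1.97 and -1.45 in the mPFC after RCF and in controls, all called. For Rpl15, the second probe was higher in DBA in all 4 strain comparisons, by 0.64 to 0.75, each called, whereas the probe used here was called in NAc controls alone. Differences between probes of 1 gene, including strain sequence differences under a probe, were not tested.

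Brain region was compared within each strain. In DBA, the median member was higher in the NAc than in the mPFC. In C57, it was slightly lower in the NAc, but neuronal markers separated the regions less in C57 than in DBA, as given below. In DBA, 10 members were called higher and 0 lower after RCF, and 9 higher and 0 lower in controls. Of all features, 11.9% were called higher and 27.1% lower after RCF (39.0% in either direction), and 10.7% higher and 27.6% lower in controls (38.3%). The share of members called higher, 11.2% and 10.1%, was thus near that of all features, while no member was among the many features called lower. The member median was 0.24 after RCF and 0.29 in controls, against -0.14 and -0.13 for all features, and 84 of 89 members were above 0 in both. After quantile normalization it was 0.21 and 0.24, with 21 and 25 members called higher and 0 lower. Under that scaling 16.1% of all features were called higher and 20.7% lower after RCF, and 16% higher and 20.8% lower in controls. Without the samples in doubt the medians were 0.24 and 0.20.

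Of the members called in DBA, 6 were called higher after RCF and in controls alike, among them Rpl3, Rpl27a, Rps9, Rps13 and Rps4l, which is 60% of the RCF calls and 66.7% of the control calls. Of all features called higher, the shared ones were 66% of the RCF calls and 73.4% of the control calls. Rpl3, a large subunit protein near the peptidyl transferase centre, read 7.006, 6.649, 6.744 and 6.456 in DBA NAc RCF, against 6.149, 6.261 and 6.077 in DBA mPFC RCF. In controls it read 6.695, 6.906, 6.898 and 6.643 in the DBA NAc, against 6.065, 6.216 and 6.283 in the DBA mPFC. Neither pair overlaps, and the differences were 0.55 ± 0.16 (SE; limma, adjusted p = 0.00826) and 0.60 ± 0.16 (SE; limma, adjusted p = 0.0048). Rps4l was higher in the DBA NAc by 1.20 after RCF and 0.83 in controls. Without DBA NAc control 4, the sample with C57-like strain markers, its control difference was 0.51 (limma, adjusted p = 0.186). Rpl27a was 0.51 after RCF and 0.32 without DBA NAc RCF 1. Another Rpl27a probe gave 0.11 after RCF, not called. The other calls, Rps4x, Rps6, Rpl13a and Rps28 after RCF and Rplp2, Rps23 and Rps27a in controls, were higher by 0.35 to 0.57; Rps27a was 0.57, and 0.38 without DBA mPFC control 1.

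In C57, Rpl36al, a paralog of the large subunit gene Rpl36a, was the 1 member called, lower in the NAc after RCF by -0.52 ± 0.15 (SE; limma, adjusted p = 0.0352), and none was called in controls. Of all features, 7.69% were called after RCF (2.96% higher, 4.73% lower) and 0.0995% in controls (0.0564% higher, 0.0431% lower). Rpl36al read 3.976, 4.081, 4.438 and 4.207 in C57 NAc RCF, against 4.645, 4.686, 4.807 and 4.649 in C57 mPFC RCF. The 3.976 belongs to C57 NAc RCF 1, whose neuronal markers were mPFC-like. The 4.645 belongs to C57 mPFC RCF 1, whose neuronal markers were NAc-like. No Rpl36al difference without these samples in doubt is given, and tissue and slide cannot be told apart here. The member medians of -0.15 after RCF and -0.18 in controls (all features -0.04 and -0.06) were 0.04 and -0.08 after quantile normalization, with 5 members called higher and 1 lower after RCF (2.82% and 3.21% of all features). Without the samples in doubt they were -0.03 and 0.03.

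The difference between the strain effects in the 2 regions was tested directly, a comparison added after the data had been seen. Taken as NAc minus mPFC of DBA minus C57, it had a median over members of 0.42 after RCF and 0.49 in controls, against -0.08 and -0.10 for all features, with 83 and 86 of 89 members above 0. After RCF, Rps4l (1.40), Rpl36al (0.73), Rps28 (0.65) and Rps13 (0.59) passed the test; in controls 3 members did, among them Rps23 (0.96) and Rpl7a (0.84). Of all features, 3.32% were called higher and 13.3% lower after RCF (16.6%), and 1.32% higher and 8.51% lower in controls (9.82%). With the samples in doubt left out, 2 members passed after RCF, both higher, and 0 in controls (8 and 1 at an unadjusted p under 0.05), with medians of 0.30 and 0.22. Of all features, 2.31% were then called higher and 11.2% lower after RCF, and 0.0597% higher and 1.35% lower in controls. Rps23 was 0.46 and Rpl7a 0.41 in controls without those samples. After quantile normalization the medians were 0.19 and 0.33. Strain, tissue and slide enter this comparison together and cannot be told apart.

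Cell type markers moved with some of these comparisons. In the DBA NAc against the DBA mPFC, striatal projection neuron markers were called higher for 11 of 15 genes after RCF and 6 of 15 in controls, cortical excitatory neuron markers lower for 12 of 13 in both, and myelin markers higher for 7 of 11 (1 lower) and 2 of 11. Astrocyte markers were higher for 3 of 9 in both, and microglial markers were lower for 0 of 10 after RCF and 5 of 10 in controls. Of all features, 11.9% were called higher and 27.1% lower after RCF, and 10.7% and 27.6% in controls. In the C57 NAc against the C57 mPFC, 0 of 15 striatal markers were called in either comparison. Their median difference was 1.15 after RCF and -0.003 in controls, against 3.23 and 2.31 in DBA. Of 13 cortical markers, 1 was called lower in C57 after RCF and 0 in controls, against 4.73% and 0.0431% of all features. The medians of the cortical markers were -2.93 and -1.865, against -3.99 and -4.595 in DBA. Between strains, microglial markers were lower in DBA for 3 of 10 in the mPFC after RCF and 2 of 10 in the other 3 comparisons. Astrocyte markers were lower for 2 of 9 in both mPFC comparisons. Of all features, 13.3% were called lower in the mPFC after RCF and 8.43% in controls. In the NAc the shares were 10.9% and 11.1%. These few calls therefore do not by themselves show a shift of a cell type. The mean log2 level of the myelin list was 3.08 in DBA NAc RCF and 1.98 in DBA mPFC RCF. Between strains in the mPFC after RCF, myelin markers were lower in DBA for 4 of 11 genes, with mean levels of 1.98 in DBA and 2.88 in C57. Striatal markers were lower for 2 of 15, with mean levels of 0.89 and 2.50. Beside the 13.3% of all features called lower there, 2 of 15 is no excess. In the NAc after RCF the mean levels were 3.08 for myelin in DBA and 3.15 in C57, and 3.79 for striatal markers in DBA and 3.68 in C57. In NAc controls the striatal means were 3.72 in DBA and 2.64 in C57, where C57 NAc control 1 and 3 read 1.35 and C57 NAc control 2 and 4 read 3.92. The part of these marker differences in the members' differences was not tested.

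Other genes of protein synthesis were read from lists. Among 23 tested genes outside the family known or held to carry a TOP tract (elongation and initiation factors and others), 0 were called for RCF in any of the 4 comparisons. In the mPFC, DBA minus C57, their median was -0.13 after RCF (2 called higher, 7 lower) and -0.24 in controls (3 higher, 4 lower). In the NAc it was 0.12 after RCF (4 higher, 0 lower) and 0.07 in controls (3 higher, 0 lower). Of all features, 21.7% were called higher and 13.3% lower in the mPFC after RCF, and 16% and 8.43% in controls. In the NAc the shares were 4.99% and 10.9% after RCF, and 6.07% and 11.1% in controls. Eef1a1, which brings aminoacyl-tRNA to the ribosome, was lower in the DBA mPFC by -0.49 after RCF and -0.60 in controls. Rpsa, a small subunit protein whose symbol the selection rule misses, was lower there by -0.76 and -0.85. Eif3f and Snhg1 went the other way, higher in the DBA mPFC by 0.42 and 0.50 after RCF and 0.45 and 0.63 in controls. In the NAc, Eif3f was higher in DBA by 0.35 after RCF and 0.38 in controls, and Snhg1 by 0.52 and 0.83. In the DBA NAc against the DBA mPFC, 5 TOP genes were higher after RCF and 4 in controls, and 0 lower. Of all features, 11.9% and 10.7% were called higher there, and 27.1% and 27.6% lower.

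The 77 tested mitochondrial ribosomal protein genes, whose products serve the separate ribosome of mitochondria, had strain medians of 0.17 in the NAc after RCF and in controls, with 8 called higher and 5 lower after RCF and 12 higher and 3 lower in controls. In the mPFC their medians were -0.09 after RCF (9 higher, 14 lower) and -0.08 in controls (9 higher, 8 lower). None of the 77 was called for RCF. Of all features, 15.8% were called in either direction in the NAc after RCF and 17.2% in controls. In the mPFC 35.0% and 24.4% were called. The totals called in the mitochondrial list lay near or below these shares. The 45 ribosome assembly genes had strain medians of -0.17 and -0.10 in the mPFC after RCF and in controls, and of 0.03 and 0.02 in the NAc. In the mPFC, 6 were called higher and 12 lower after RCF, and 5 higher and 6 lower in controls. All features called in either direction were 35.0% and 24.4%, as above. Fbl, the methyltransferase of rRNA, was lower in the DBA mPFC by -0.77 after RCF and -0.60 in controls. Nop14 and Nob1 went the other way there, higher by 0.75 and 0.79 after RCF and by 0.71 and 0.50 in controls. Ubtf, the RNA polymerase I factor, was the 1 assembly gene called for RCF, lower in the C57 NAc by -1.21 ± 0.26 (SE; limma, adjusted p = 0.0346). The C57 NAc controls were 2 samples, 1 of them in doubt, and no Ubtf result without that sample is given. DBA minus C57, Ubtf was -1.22 in NAc controls, where the same C57 samples enter, and -0.84 in mPFC controls. It was not called between strains after RCF in either region.

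Of 19 genes of mTORC1 and the S6 kinases, 0 were called for RCF. Rps6kb1, which encodes S6 kinase 1, was lower in the DBA mPFC by -1.19 after RCF and -0.76 in controls, and Rps6kb2, which encodes S6 kinase 2, was higher by 1.06 and 0.98. Akt1s1, an inhibitor of mTORC1, was higher by 1.64 and 1.74. In the NAc, Rps6kb1 was lower in DBA after RCF by -0.63.

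**Figure D5:**
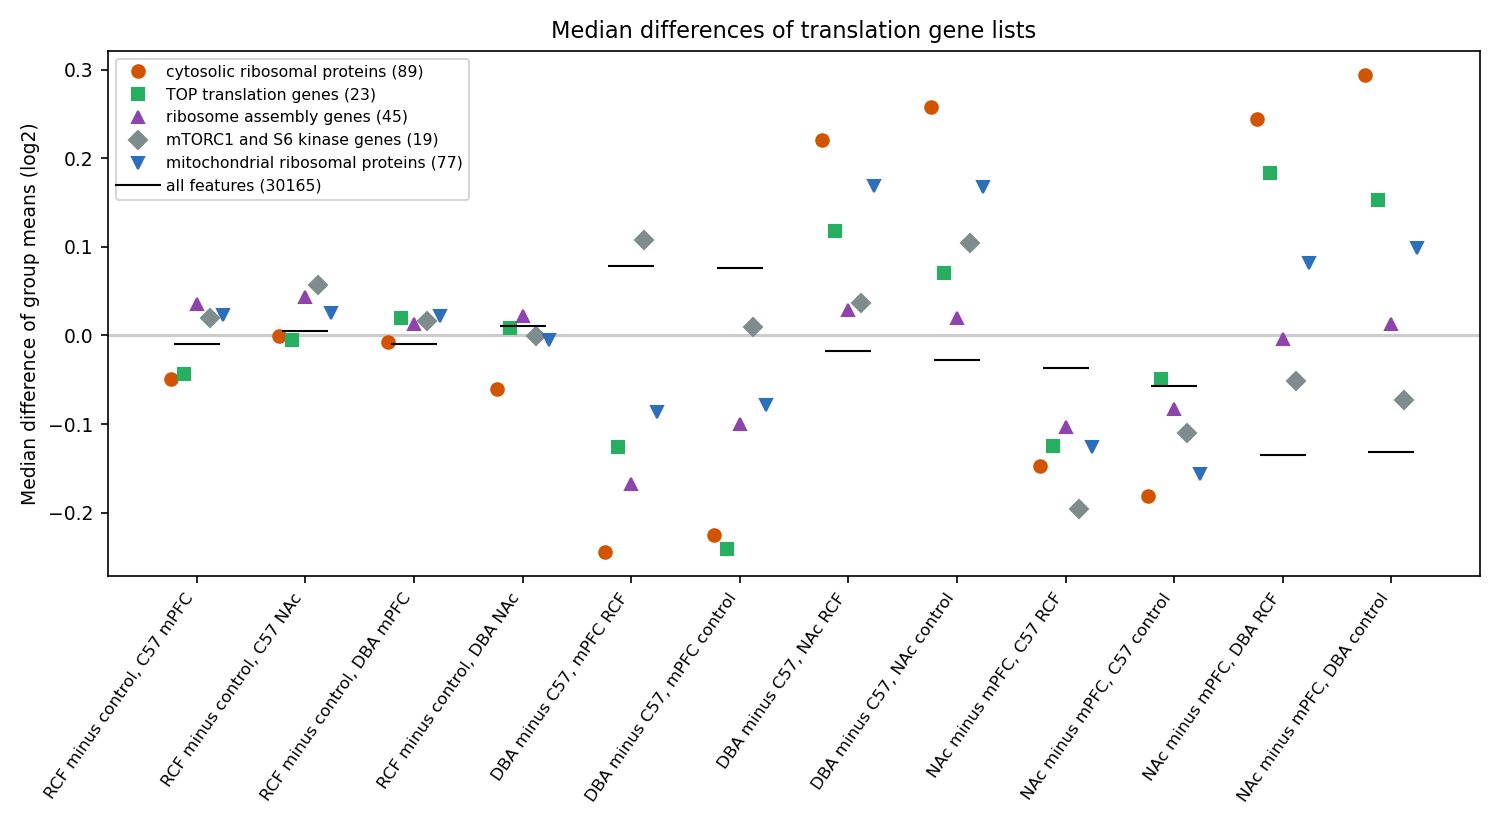
Median difference of group means (log2) in 12 comparisons for the 89 ribosomal protein genes, 23 other TOP genes, 45 assembly genes, 19 mTORC1 and S6 kinase genes, 77 mitochondrial ribosomal protein genes and all 30165 features (black bars). Ribosomal protein medians lie farther from the all-feature median than those of the assembly genes in the 4 strain comparisons, and the medians for RCF minus control lie close to 0.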

How the data were processed

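Agilent Feature Extraction 10.7.3.1, per the file headers, wrote the deposited intensity used here (a background-subtracted, detrended signal, not normalized between arrays), the median spot and background intensity used for normexp, and the deposited yes-or-no marks for outlier, saturation and well above background. The series matrix that the authors deposited has 30067 probes as log2 values, made with limma per the submitters' processing notes, the steps not given in the sources used here.

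Scanner files were matched to samples through the matrix, column by column. Probes were named through RefSeq accessions (28026 probes). A pair of arrays was averaged where their difference was under 3 times the standard error given by repeated spots. The difference was taken as the median absolute difference scaled to an SD, over 278 probes printed at least 5 times. The ratio was 1.259 to 2.327 in 4 pairs and 5.06 to 17.021 in the other pairs of 45. Log2 intensity minus the array's 75th percentile was tested for probes that at least 3 arrays of some group showed well above background and no more than 50% of arrays marked as outliers, giving 30165 features (brightest probe per gene). limma 3.58.1 in R 4.3.3, with an intensity trend, fitted 8 group means (19 residual degrees of freedom); p-values were adjusted over all features, with a threshold of 0.05. Python 3.11.15 with numpy 2.4.6, pandas 2.3.3 and matplotlib 3.10.9 did the rest.

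Tested on simulated data for DBA minus C57 in the mPFC after RCF (30165 features), the fit recovered 11.9% of features changed by 0.5, 59.7% changed by 1 and 78.8% changed by 2 on the log2 scale. The simulation changed 67, 67 and 66 features by these amounts and drew noise independently for each feature. In the real comparison 35.0% of features were called and members moved together, so recovery there can differ. The number of arrays limits the precision. No pairing of the samples by replicate number was seen, and none was used in the main fit. Members named were those called in a comparison, the 3 of lowest p for each RCF comparison and interaction, the 5 highest, lowest and most variable, paralogs, stalk proteins and Rps6, of which only those with a result to show are given, and a few members are not reported here; examples from the other lists were chosen after their values were seen. The members, lists, averaging limit, samples in doubt and array assignment were chosen with earlier results of these data known.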

Additional observations from a re-analysis of the deposited data

Results flagged for a closer look

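Among groups of 4 samples, single samples far from the other 3 were looked for with Dixon's test in the median member level and in the named members; chance marks about 1 in 20 groups. C57 mPFC RCF 4 stood apart in 4 measures. Its median member level was 5.753, against 6.164 to 6.208 in the other C57 mPFC RCF samples. Rps3 read 4.849 there (others 5.201 to 5.255), Rps21 read 5.339 (6.181 to 6.293) and Rpl27a read 5.785 (6.228 to 6.31). This sample had 80.2% of probes well above background, against 63.5% to 70.7% in the other 3. After quantile normalization its median member level of 5.943 lay within the 5.923 to 6.037 of the others. The part of array brightness was not tested. In DBA NAc control 4, whose strain markers were C57-like, Rps6 read 6.035, against 6.292 to 6.33 in the other DBA NAc controls.

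The strain difference differed between NAc and mPFC, by the test of the difference itself, for 4 members after RCF (Rps4l, Rpl36al, Rps28 and Rps13) and for 3 in controls (among them Rps23 and Rpl7a). The members called are 4.49% and 3.37% of 89, against 16.6% and 9.82% of all features. Without the samples in doubt they numbered 2 after RCF and 0 in controls (limma; 1 at an unadjusted p under 0.05 in controls).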

How the results depend on the processing

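The number of members called for RCF stayed at 0 in the alternatives tried, apart from quantile normalization and near-duplicates kept apart (1 each in the C57 NAc) and scanner files taken as listed (16 in the C57 mPFC, 17 in the C57 NAc, 36 in the DBA mPFC, 5 in the DBA NAc). The files as listed gave, DBA minus C57, 36 calls in the mPFC after RCF and 0 in mPFC and NAc controls, 0 between tissues in C57 RCF, DBA RCF and DBA controls, 31 for strain by treatment in the mPFC and 1 in the NAc, and 0 for strain by tissue. Their arrays then carry other samples' labels. All counts of calls in this section are of members alone. The share of all features called in each setting is not given beside them, so they do not compare the members with other genes. For DBA minus C57 in the mPFC after RCF they reversed Rpl13a (0.52), Rpl4 (0.18), Rpl5 (0.21), Rpl7a (0.47), Rps15a-ps6 (-0.12), Rps21 (0.46), Rps23rg1 (0.19), Rps28 (0.48), Rps3 (0.15) and Rps4l (0.72). In the NAc they reversed Rpl29 (-0.20), Rps2 (0.13), Rps23rg1 (0.13), Rps3 (0.22) and Rps4l (1.45) after RCF, and Rpl15 (-0.29), Rpl28 (-0.19) and Rps23 (-0.16) in controls. Between tissues they reversed Rpl36al in C57 RCF (0.073) and, in DBA RCF, Rpl13a (-0.17), Rpl27a (-0.14), Rpl3 (-0.13), Rps13 (-0.17), Rps28 (-0.10), Rps4x (-0.13), Rps6 (-0.11) and Rps9 (-0.10), and for strain by tissue after RCF Rpl36al (-0.20), Rps13 (-0.21) and Rps28 (-0.13). Of 1235 recomputed values of the 60 calls of members named in the text, 849 kept direction and call, 356 kept the direction only and 30 reversed.

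Calls for DBA minus C57 (10 in the mPFC after RCF, 10 in mPFC controls, 9 in the NAc after RCF, 9 in NAc controls) moved as follows. In the mPFC after RCF they were 19 with quantile normalization, 6 with the authors' matrix, 20 with near-duplicates apart and 51 with array weights. In mPFC controls they were 6 with normexp, the authors' matrix or only the compared groups fitted, 22 with weights and 4 without the samples in doubt. In the NAc after RCF they were 22 with quantile normalization, 3 with only the compared groups and 5 without the samples in doubt. In NAc controls they were 43 with quantile normalization, 25 with near-duplicates apart, 0 with only the compared groups and 2 without the samples in doubt. Between tissues in C57 RCF (1) they were 6 with quantile normalization, 0 with normexp or only the compared groups, 2 with the mean over probes or near-duplicates apart and 28 with weights, and in C57 controls (0) 1 with near-duplicates apart. In DBA RCF (10) they were 21 with quantile normalization, 17 with near-duplicates apart and 29 with weights. In DBA controls (9) they were 25 with quantile normalization, 5 with normexp or without the samples in doubt, 19 with near-duplicates apart, 44 with weights and 14 with only the compared groups. Strain by tissue after RCF (4) gave 0 with normexp or the matrix, 9 with near-duplicates apart, 44 with weights and 2 with only the compared groups or without the samples in doubt. In controls (3) it gave 5 with quantile normalization or weights, 0 with normexp, the matrix or without the samples in doubt, 14 with near-duplicates apart and 1 with only the compared groups. The sample level of the member list, 6.083, was 5.428 with the mean over probes and 3.819 in the matrix. The cause of these moves was not tested.

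Leaving out 1 sample at a time gave 5 to 24 calls in the mPFC after RCF, 5 to 8 in mPFC controls, 4 to 16 in the NAc after RCF, 0 to 14 in NAc controls, 0 to 10 between tissues in C57 RCF, 3 to 16 in DBA RCF, 2 to 19 in DBA controls, 0 to 15 for strain by tissue after RCF and 0 to 8 in controls. Without C57 mPFC RCF 4 the counts were 24, 10 (C57 RCF tissues) and 15 (strain by tissue), without C57 NAc RCF 3 they were 16 in the NAc after RCF, and without DBA NAc control 4 they were 14 in NAc controls and 19 in DBA control tissues. Same-numbered samples correlated between -0.639 and 0.663 in their deviations, and no pair of groups had every correlation above 0.1. No pairing by number was thus seen. With 3 or 4 correlations per pair of groups, this cannot exclude that a number marks 1 animal or litter. With replicate number as a block, calls were 2 between tissues in C57 RCF and 17 in DBA controls, and within 1.5 times elsewhere. The few arrays limit what could be detected.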
